A study of Mus musculus with 6 samples.

Results

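The dystrophin glycoprotein complex was examined in cultured mouse myoblasts through 9 genes chosen by name, namely Dmd, Utrn, Dag1, Sgca, Sgcb, Sgcd, Sgce, Sspn and Dtna. All 9 were found among the 18195 genes of the array, through 27 probe sets that carry 1 of these symbols, and 0 probe sets of these genes were left out for carrying several symbols. The cells were myoblasts, the dividing precursors of muscle fibres, taken from male C57BL/6JRj mice of 9 to 15 weeks (hindlimb muscle) and grown for 72 hours on fibronectin (3 samples) or on collagen I (3 samples). Both groups were kept in a serum-rich medium with basic fibroblast growth factor, and no uncoated or laminin-coated dish is among the 6 samples. Their RNA was labelled with biotin and read on an Affymetrix array, and the question was which genes differ in signal between the coatings. The labels do not say whether samples came from separate animals or cultures, so p-values measured the spread between these samples only, which may be technical.

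The complex ties the actin cytoskeleton of a muscle cell to the basement membrane. Dystrophin, or its paralog utrophin, binds actin and the cytoplasmic tail of beta-dystroglycan, and alpha-dystroglycan binds laminin, agrin and perlecan outside the cell through its sugar chains. The sarcoglycans and sarcospan form a membrane subcomplex beside dystroglycan, and the dystrobrevins and syntrophins are attached to dystrophin on the inner side. In muscle, dystrophin and alpha-sarcoglycan accumulate as myoblasts differentiate and fuse, whereas utrophin and epsilon-sarcoglycan are made in many cell types. Mutations of dystrophin and of several sarcoglycans cause muscular dystrophies. Fibronectin and collagen I are bound mainly through integrins.

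On fibronectin, signals of Dmd, Dag1, Sgca and Dtna were lower than on collagen I, and that of Sgce was higher. Dmd fell 1.71-fold, Sgca 1.36-fold, Dtna 1.23-fold and Dag1 1.19-fold, and Sgce rose 1.16-fold. Utrn, Sgcb and Sspn did not pass the test, and Sgcd was too dim to be tested. Each gene was read through its brightest probe set on average, and tested where the mean of that probe set reached 2.33 on the log2 scale, the median over all probe sets, which 8 of the 9 members did. By limma with Benjamini-Hochberg adjustment over 10942 genes at a threshold of 0.05, 5 of these 8 members passed, against a background of 40.1% of all tested genes. Of the 8, 4 were lower, against 20.2% of all tested genes, and 1 was higher, against 19.9%. The median log2 change was -0.17 over the tested members and 0.004 over all tested genes, and the median size of a change was 0.23 and 0.14. With each sample centred on its median, calls over all genes moved to 2971 higher and 1646 lower, against 2173 and 2211 as deposited, and the members again gave 4 lower and 1 higher.

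**Figure D1:**
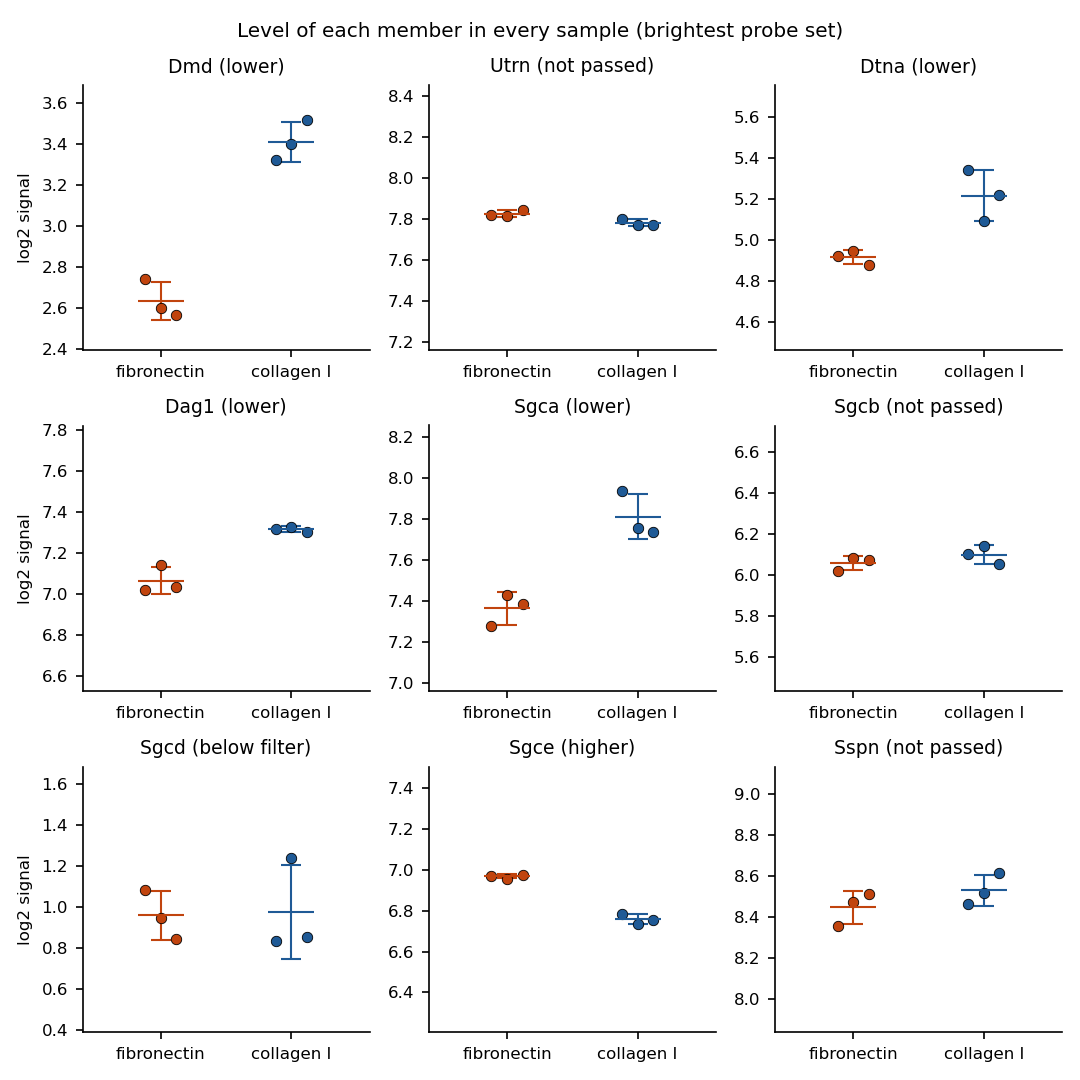
Log2 signal of each member's brightest probe set in every sample, with fibronectin on the left and collagen I on the right of each panel; points are samples, the horizontal dash is the mean and the bars are 1 SD (n = 3). Each panel spans the same range of log2 units. The Dmd, Dtna, Dag1 and Sgca samples on fibronectin all lie below those on collagen I, and the Sgce and Utrn samples on fibronectin all lie above. Utrn did not pass the test, and the groups did not overlap in 53.3% of all tested genes.

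As a description, the stretches from 250 bases before to 50 bases after annotated starts are shown for Dmd, Dag1 and Sgca, 3 of the 4 members that were lower. Sequences are those of RefSeq on build GRCm38.p6, which gives 10 such windows for 7 of the 9 members, with none here for Sgce or Dtna. Each is written 5′ to 3′ along the gene. Capitals mark matches to the motifs searched on both strands, which were 2 E-boxes bound by myogenic factors (CAGCTG; also CAGGTG), the core of the muscle M-CAT element (CATTCC), the GC box (GGGCGG), the MEF2 motif and the CArG box of serum response factor. The Dmd window is the upstream one of its 2, the Dag1 window is the upstream one of 2 overlapping windows, and which start gives rise to the transcripts read by a probe set is not known from the files.
Dmd, chrX:82948620-82948919, plus strand: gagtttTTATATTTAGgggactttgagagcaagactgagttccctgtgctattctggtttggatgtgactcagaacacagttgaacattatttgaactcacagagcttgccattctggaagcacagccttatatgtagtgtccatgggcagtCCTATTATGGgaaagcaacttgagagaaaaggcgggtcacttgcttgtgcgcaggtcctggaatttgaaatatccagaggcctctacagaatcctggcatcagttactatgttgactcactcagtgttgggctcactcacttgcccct
Dag1, chr9:108263909-108264208, minus strand: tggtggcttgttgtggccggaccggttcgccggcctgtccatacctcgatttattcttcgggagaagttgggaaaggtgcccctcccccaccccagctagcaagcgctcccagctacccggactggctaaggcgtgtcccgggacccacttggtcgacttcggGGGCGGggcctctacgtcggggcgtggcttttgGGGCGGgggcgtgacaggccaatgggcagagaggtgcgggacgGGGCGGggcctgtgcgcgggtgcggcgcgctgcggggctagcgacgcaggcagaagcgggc
Sgca, chr11:94976278-94976577, minus strand: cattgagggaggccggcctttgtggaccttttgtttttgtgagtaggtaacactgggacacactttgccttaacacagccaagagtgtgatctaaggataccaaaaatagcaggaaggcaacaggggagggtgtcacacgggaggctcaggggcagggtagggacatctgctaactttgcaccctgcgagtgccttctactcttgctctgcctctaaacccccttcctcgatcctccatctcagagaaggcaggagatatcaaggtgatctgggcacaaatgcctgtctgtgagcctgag

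The 3 windows printed shared none of these motifs. The Dmd window held 1 MEF2 match, whose first base lies at -244 from the start, and 1 CArG box at -98. Among 32851 windows of all genes a MEF2 match was present in 1.86% and a CArG box in 1.63%. The second Dmd window, which starts at 85048045 on the same chromosome, held neither, and had 3 GGGCGG matches, 2 of them overlapping. The Dag1 window held 3 GGGCGG matches, at -87, -54 and -11, a motif present in 35.7% of all windows. The Sgca window held no match to any motif searched. GC content was 45.7% in the Dmd window, 69.7% in the Dag1 window and 52.7% in the Sgca window, against a median of 52.7% over all windows. The windows of Utrn and Sgcb, which did not pass the test, held 0 matches and 1 match to GGGCGG. The E-boxes, CAGCTG in 16.3% and CAGGTG in 20.2% of all windows, were found in 0 of the 10 windows of the members, and CATTCC, in 14.7% of all windows, in those of Sspn and Sgcd. Matches are counts of letters in these windows and were not tested against the changes in signal.

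Dmd (Entrez gene 13405) encodes dystrophin, the actin-binding rod at the centre of the complex. Its signal was 2.74, 2.60 and 2.57 in fibronectin samples 1, 2 and 3, against 3.32, 3.40 and 3.52 in collagen samples 1, 2 and 3. All 3 fibronectin samples were below the lowest collagen sample, and all 6 were above the filter of 2.33. The means were 2.64 ± 0.09 on fibronectin and 3.41 ± 0.10 on collagen (SD, n = 3 each), a log2 change of -0.78 (SE 0.07, 95% interval -0.94 to -0.62, adjusted p = 0.000145). The change rests on 1 of 4 Dmd probe sets, 1417307_at. The next brightest, 1448665_at, lay below the filter, with 1.47, 1.83 and 1.74 on fibronectin and 1.77, 1.96 and 2.16 on collagen, and its groups overlapped. The other 2, 1443315_at and 1430320_at, averaged 0.66 and 0.36 on fibronectin and 0.67 and 0.48 on collagen, also with overlap. The mean over all 4 probe sets lay below the filter, so Dmd could not be tested that way.

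Utrn (Entrez gene 22288), the widely expressed paralog of dystrophin, had no call in any single probe set. Its brightest probe set gave 7.82, 7.81 and 7.85 on fibronectin, against 7.80, 7.77 and 7.77 on collagen. The groups did not overlap, but the log2 change of 0.04 (SE 0.04, 95% interval -0.05 to 0.14) did not pass, at an adjusted p of 0.417. A second probe set, 1426892_at, had means of 4.54 ± 0.05 on fibronectin and 4.41 ± 0.08 on collagen (SD, n = 3 each) and a log2 change of 0.13, with an adjusted p of 0.121 in the fit over probe sets. The third, 1427569_a_at, had a mean over all samples below the filter, with 2.34, 2.18 and 2.18 on fibronectin and 1.85, 2.20 and 1.90 on collagen. With all 3 probe sets averaged, Utrn passed at a log2 change of 0.14 (adjusted p = 0.0337). The log2 change of Dmd minus that of Utrn was -0.82. An exact permutation test of this difference gave a two-sided p of 0.1, the smallest that 3 samples against 3 allow.

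Dtna (Entrez gene 13527) encodes alpha-dystrobrevin, a cytoplasmic partner of dystrophin that carries syntrophins. Its brightest probe set, 1427588_a_at, gave 4.92, 4.94 and 4.88 on fibronectin, against 5.34, 5.09 and 5.22 on collagen. The groups did not overlap, and the log2 change was -0.30 (SE 0.07, 95% interval -0.46 to -0.15, adjusted p = 0.00908). Dtna had 7 probe sets, of which 5 were bright enough to test and 4 fell in the fit over probe sets. The most changed of them, 1456069_at, had 3.61, 3.80 and 4.09 on fibronectin and 4.34, 4.52 and 4.51 on collagen, a 1.54-fold fall (adjusted p = 0.00593). Its fibronectin samples spread more widely (SD 0.24) than its collagen samples (SD 0.10). The probe set 1429768_at fell 1.24-fold, with 2.78, 2.79 and 2.86 on fibronectin and 3.10, 3.26 and 3.00 on collagen. The probe set 1419223_a_at fell 1.17-fold (adjusted p = 0.0381), a call lost under 8 of the alternatives tried beside the stricter threshold, 5 of which left out 1 sample each. The fifth, 1425292_at, had a log2 change of -0.21 that did not pass (adjusted p = 0.0919). The other 2 lay below the filter, with overlapping groups.

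Dag1 (Entrez gene 13138) encodes both dystroglycans, the laminin receptor of the complex and its membrane anchor. The brightest probe set, 1426778_at, gave 7.02, 7.14 and 7.04 on fibronectin, against 7.32, 7.33 and 7.30 on collagen. The groups did not overlap, and the log2 change was -0.25 (SE 0.05, 95% interval -0.36 to -0.14, adjusted p = 0.00484). All 4 Dag1 probe sets fell, with log2 changes between -0.46 and -0.25 and no overlap in any of them. They read RNA of the same gene and are not independent, and the groups did not overlap in 53.3% of all tested genes. The widest change was that of 1423872_a_at, with 4.71, 4.85 and 4.78 on fibronectin and 5.35, 5.16 and 5.21 on collagen (adjusted p = 0.0017). Of the other 2, 1426779_x_at fell 1.27-fold and 1456131_x_at fell 1.29-fold. Both carry the suffix _x_at, which marks probe sets with probes that can also bind other transcripts. The dimmer Dag1 probe sets thus gave falls of 1.27-fold to 1.37-fold, against 1.19-fold for the brightest.

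The sarcoglycans differed among themselves. Sgca (Entrez gene 20391), the alpha-sarcoglycan of striated muscle, had a single probe set, with 7.28, 7.43 and 7.39 on fibronectin, against 7.94, 7.76 and 7.74 on collagen. The groups did not overlap, and the log2 change was -0.45 (SE 0.07, 95% interval -0.61 to -0.29, adjusted p = 0.00178). Sgce (Entrez gene 20392), epsilon-sarcoglycan, is the paralog that can take the place of Sgca outside striated muscle. Its brightest probe set, 1420688_a_at, gave 6.97, 6.96 and 6.98 on fibronectin, against 6.78, 6.73 and 6.76 on collagen. It was the sole member called higher, at a log2 change of 0.21 (SE 0.04, 95% interval 0.12 to 0.30, adjusted p = 0.00517). Its second probe set, 1443518_at, lay below the filter with means of 1.93 on fibronectin and 1.92 on collagen (1.9339 and 1.925), and with both averaged the log2 change was 0.11 and did not pass (adjusted p = 0.13). The log2 change of Sgca minus that of Sgce was -0.66, and an exact permutation test of it gave a two-sided p of 0.1. Over the 2 paralog pairs compared, Dmd with Utrn and Sgca with Sgce, the adjusted p was 0.1 for each. With 3 samples against 3 this exact test cannot give a p below 0.1, so it could not reach a threshold of 0.05.

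Sgcb (Entrez gene 24051), beta-sarcoglycan, is a core subunit of the sarcoglycan complex in muscle and elsewhere. Its brightest probe set gave 6.02, 6.08 and 6.07 on fibronectin, against 6.10, 6.15 and 6.06 on collagen. The groups overlapped, and the log2 change of -0.04 (95% interval -0.15 to 0.06) did not pass, at an adjusted p of 0.501. The other Sgcb probe sets had log2 changes of -0.07 and -0.06, also with overlap and with no call. Sgcd (Entrez gene 24052), delta-sarcoglycan, had 1 probe set, with 1.09, 0.95 and 0.85 on fibronectin and 0.84, 1.24 and 0.85 on collagen. These values overlapped and lay below the filter, so Sgcd was not tested.

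Sspn (Entrez gene 16651) encodes sarcospan, a membrane protein that stabilises the sarcoglycans beside dystroglycan. Its brightest probe set gave 8.36, 8.47 and 8.51 on fibronectin, against 8.46, 8.51 and 8.61 on collagen. The groups overlapped, and the log2 change of -0.08 (95% interval -0.22 to 0.06) did not pass, at an adjusted p of 0.309. The dimmer one, 1417645_at, averaged 4.92 ± 0.23 on fibronectin and 4.97 ± 0.08 on collagen (SD, n = 3 each), likewise with no call.

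**Figure D2:**
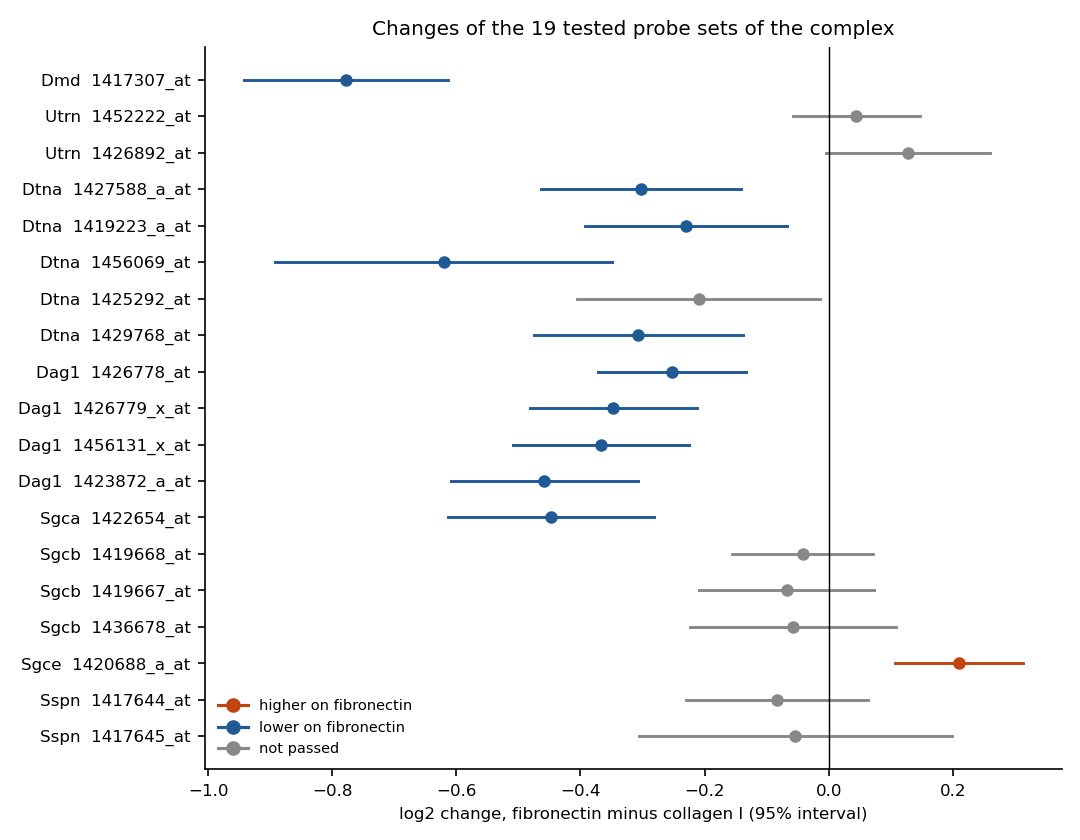
Log2 change, fibronectin minus collagen I, of the 19 member probe sets that reached the filter, each with its 95% interval from the limma fit over probe sets; colour gives the call. All 4 Dag1 and 4 of 5 Dtna probe sets lie to the left of 0 with a call, the Sgcb and Sspn intervals all cross 0, and Sgce alone is called to the right.

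Across the 27 probe sets of the members, 8 lay below the filter, with means between 0.34 and 2.11, and 19 were tested. Of these, 11 passed the fit over 19448 probe sets with 1 gene, against 34.3% of all. Falls made up 10 of the 19, against 16.6% of all probe sets tested, and rises made up 1, against 17.7%. Probe sets of a gene read the same RNA and are not independent, and Dag1 and Dtna supplied 8 of the 10 falls. All calls within Dag1 and within Dtna, the members with more than 1 called probe set, were falls. Of the 8 members tested as genes, 6 had fibronectin and collagen samples that did not overlap, against 53.3% of all tested genes. The SD of these members within a coating lay between 0.01 and 0.13, and the median SE of a change over all genes was 0.06.

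**Figure D3:**
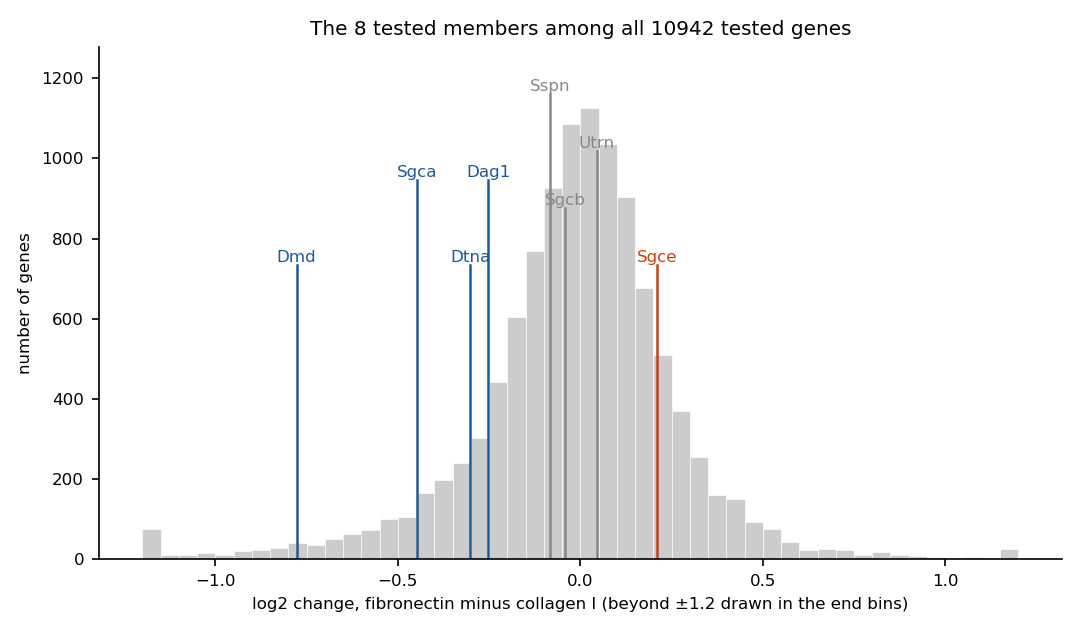
Histogram of the log2 change, fibronectin minus collagen I, of all 10942 tested genes in bins of equal width, with changes beyond the axis in the outermost bins (y axis, number of genes), with a vertical line at the change of each of the 8 tested members. Line height has no meaning. Dmd, at -0.78, lies in the lower tail, whereas Sspn, Sgcb and Utrn, between -0.08 and 0.04, lie in the bulk of genes.

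Among other subunits and partners of the complex Sntb2 alone passed the test. Of 10 genes listed, 7 were measured and 4 reached the filter, and 1 of them rose and 0 fell, where 40.1% of all tested genes passed; the median log2 change was 0.02. Sntb2, a syntrophin that recruits signalling proteins, rose 1.14-fold, with 5.03, 5.04 and 5.03 on fibronectin, against 4.76, 4.92 and 4.88 on collagen (adjusted p = 0.0259). Its call was lost when any 1 fibronectin sample was left out, at adjusted p between 0.0664 and 0.0705, and with no brightness filter (0.0761), and with its probe sets averaged the log2 change was 0.01. Dtnb, the beta-dystrobrevin, Drp2, a dystrophin-related protein, and the nitric oxide synthase Nos1 had log2 changes of 0.05, -0.01 and -0.01 with no call. The syntrophins Sntb1, Sntg1 and Sntg2 lay below the filter.

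Of the enzymes that build the laminin-binding sugar chain of alpha-dystroglycan, a share near the background passed. Of 18 listed genes 14 were measured and 13 tested, and the 13 had 2 rises and 3 falls, where 40.1% of all tested genes passed, and a median log2 change of -0.12. B4gat1, which starts the outer glucuronyl-xylosyl repeat, rose 1.22-fold, with 5.84, 5.86 and 5.93 on fibronectin, against 5.56, 5.65 and 5.57 on collagen (adjusted p = 0.00306). Rxylt1, a xylosyltransferase of the same chain, rose 1.25-fold (adjusted p = 0.0188). Dolk and Dpm2, which make and use dolichol phosphate, fell by 0.20 and 0.19 on the log2 scale, and Gmppb, which makes GDP-mannose, fell by 0.16, at adjusted p between 0.0188 and 0.0261. With each sample centred, these 3 falls did not pass, at adjusted p between 0.0846 and 0.111. Each was also lost when certain single samples were left out, and with no brightness filter (adjusted p between 0.0600 and 0.0801). The Rxylt1 call was lost without fibronectin replicate 3 (adjusted p = 0.0655) and with no brightness filter (0.052). The other 8 tested members did not pass.

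Of 12 listed genes of matrix ligands, 11 were measured and 8 tested, and the 8 had 0 rises and 2 falls, where 40.1% of all tested genes passed, and a median log2 change of 0.02. Bgn, the small proteoglycan biglycan, which binds alpha-dystroglycan and sarcoglycans, fell 1.81-fold, with 5.62, 5.74 and 5.89 on fibronectin, against 6.65, 6.54 and 6.63 on collagen (adjusted p = 0.000127). Lama5, a laminin alpha chain, fell 1.21-fold (adjusted p = 0.0256), a call lost without collagen replicate 1 or 2 and without fibronectin replicate 1 or 3, at adjusted p between 0.0747 and 0.0837. It was also lost with samples centred (adjusted p = 0.0567) and with no brightness filter (0.0675). Lama2, the laminin alpha chain of the muscle basement membrane, had a log2 change of 0.04, agrin (Agrn) 0.01 and perlecan (Hspg2) 0.14, with no call.

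Among 16 genes of membrane and cytoskeletal linkers, 13 were tested, with 4 rises and 3 falls, against 19.9% higher and 20.2% lower among all tested genes, and a median log2 change of 0.01. Krt19, a keratin that joins dystrophin to the contractile apparatus in striated muscle, rose 1.85-fold, with 3.88, 3.82 and 3.74 on fibronectin, against 2.86, 2.94 and 2.99 on collagen (adjusted p = 3.96e-05). Ahnak, a large scaffold under the plasma membrane, rose 1.36-fold and the ankyrin Ank3, which anchors membrane proteins to spectrin, rose 1.34-fold. With its probe sets averaged, Ahnak had a log2 change of 0.16 and no call (adjusted p = 0.14). Ank2, another ankyrin, which was named after its value was seen, rose 1.16-fold. Tln1, which links integrins to actin, fell 1.38-fold, the muscle caveolin Cav3, a binding partner of dystroglycan, fell 1.31-fold, and the muscle intermediate filament Des fell 1.17-fold. Des lost its call without collagen replicate 3 and without fibronectin replicate 1 or 3, at adjusted p between 0.0505 and 0.0571, and also with samples centred (0.0686) and with no brightness filter (0.0575). The laminin-binding integrin subunits Itga7 and Itgb1 had log2 changes of -0.03 and 0.01 with no call. Krt8, another keratin, lay below the filter, with means of 1.44 on fibronectin and 1.35 on collagen, as did Synm and Capn3.

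Markers of muscle differentiation moved in the direction of Dmd, Sgca, Dag1 and Dtna. Of 11 listed markers 8 were tested and all 8 fell, against 20.2% of all tested genes, with a median log2 change of -0.82, and Mymx, Myh8 and Ckm lay below the filter. The call of Tnnt1, a slow troponin, at a log2 change of -0.24, was lost with samples centred (adjusted p = 0.0738), with no brightness filter (0.0677), and without collagen replicate 1 or 2 or fibronectin replicate 1 or 3, at adjusted p between 0.0617 and 0.0837. Their summed linear signal was between 345 and 402 in the fibronectin samples, against 618 to 643 in the collagen samples. Myog, a transcription factor that drives differentiation, averaged 3.98 ± 0.20 on fibronectin and 4.81 ± 0.18 on collagen (SD, n = 3 each), and Mki67, a marker of dividing cells, 9.04 ± 0.10 and 8.59 ± 0.01. The myoblast factors Myod1 and Myf5 had log2 changes of -0.06 and 0.08 with no call, and all 7 markers of the labelled cell type reached the filter. Of these 7 the muscle cadherin Cdh15 rose by 0.24 on the log2 scale, whereas the acetylcholine receptor subunit Chrna1 and Des fell by 0.31 and 0.23. The summed linear signal of the 7 was 3882 to 4053 on fibronectin and 4377 to 4587 on collagen, with no overlap. Chrna1, the brightest of the 7, averaged 10.8 on fibronectin and 11.1 on collagen (log2) and weighs most in this sum. Of the 7, 4 had no call. In bulk RNA fewer cells of a type and less RNA per cell cannot be told apart, and the part of differentiation markers in the changes of the complex was not tested.

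**Figure D4:**
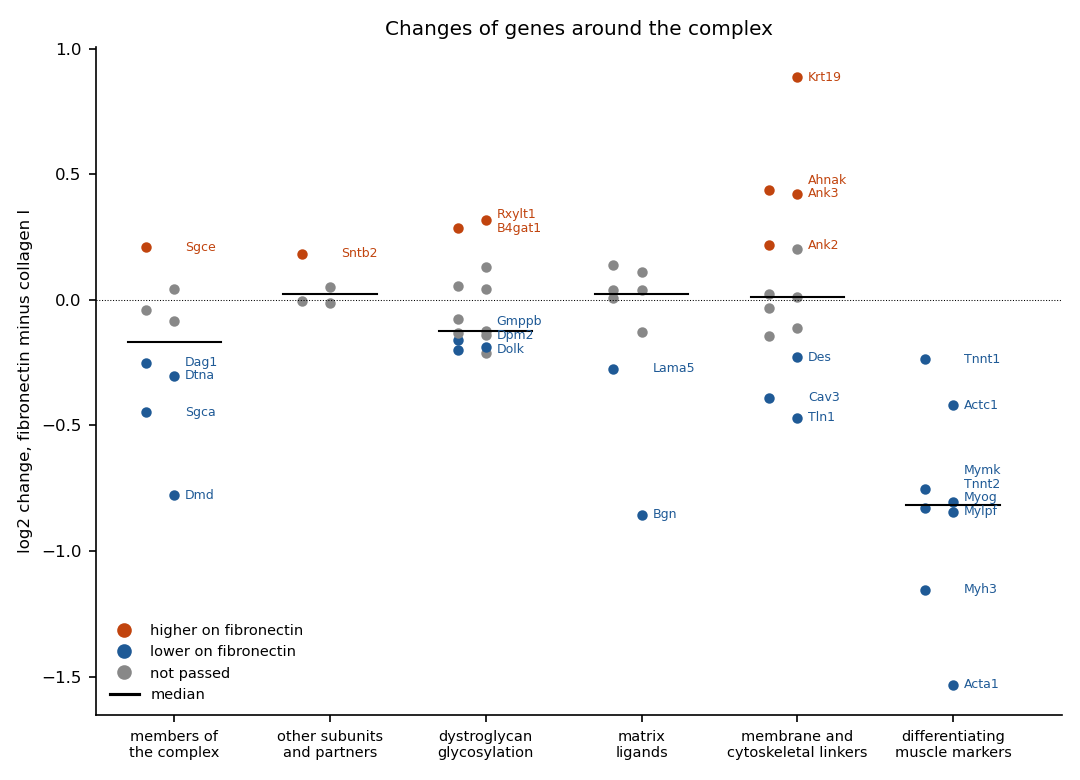
Log2 change, fibronectin minus collagen I, of the tested genes of 6 lists, with 1 point per gene, colour by call, names for genes past the threshold and a black line at the median of each list. Members of the complex and differentiation markers have medians of -0.17 and -0.82, and the other 4 lists have medians between -0.12 and 0.02.

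Markers of other cell types were mostly dim. Of 7 measured fibroblast markers 1 reached the filter, Thy1, which fell 1.25-fold, and their summed linear signal was 18.9 to 22.6 on fibronectin and 19.8 to 21.8 on collagen. The Thy1 call was lost under 10 of the alternatives tried, beside the stricter threshold. All 5 endothelial markers lay below the filter, with sums of 10.1 to 11.2 on fibronectin and 9.54 to 10.9 on collagen. Of 5 macrophage markers 2 reached the filter and Cd68, a lysosomal membrane protein, fell 2.42-fold, Csf1r had a log2 change of -0.03 with no call, while Ptprc, Adgre1 and Mrc1 lay below it, and the sums were 22.9 to 29.4 on fibronectin and 36.5 to 42.8 on collagen. Of 3 measured Schwann cell markers 2 reached the filter and Ngfr, a neurotrophin receptor, fell 2.61-fold, while Sox10 had a log2 change of 0.05 with no call, with sums of 19.6 to 23.6 on fibronectin and 35.8 to 38.2 on collagen. Of 5 smooth muscle and pericyte markers 3 reached the filter, of which Rgs5 fell 2.36-fold and Acta2 rose 1.16-fold and Notch3 had a log2 change of 0.12 with no call, while Myh11 and Pdgfrb lay below it, and the sums were 1309.9 to 1378 on fibronectin and 1456 to 1516.5 on collagen. The Acta2 call was lost when any 1 collagen sample was left out and without fibronectin replicate 1, at adjusted p between 0.0577 and 0.0671. It was also lost with no brightness filter (adjusted p = 0.0747), and with its probe sets averaged the log2 change was 0.09 in place of 0.21 (adjusted p = 0.334). Cd68, with means of 3.36 on fibronectin and 4.63 on collagen (log2), was the brightest macrophage marker. Ngfr, with 3.25 and 4.64, was the brightest Schwann cell marker. Each weighs most in the collagen sums of its list, and no other marker of these lists had a call. The part of markers of other cell types in the changes of the complex was not tested.

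The genes whose signal most resembled that of Dmd, the member with the smallest p, were named by Pearson correlation over the 6 samples, as a description. They were Klf9, a transcription factor that responds to glucocorticoids (r = 0.999), Mfsd12, a lysosomal transporter (0.997), Klc4, a kinesin light chain (0.996), Rragc, a GTPase of lysosomal nutrient sensing (0.995), and Dnm1, a dynamin (0.995). Their log2 changes lay between -0.77 and -0.36. With probe sets averaged, Klf9 had -0.41, Dnm1 -0.40 and Klc4 -0.19, the last with no call (adjusted p = 0.0717). Of all tested genes 528 had an r above 0.95 with Dmd, and the 6 points share their coating in sets of 3.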

How the data were processed

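The deposited values were log2 probe set signals, made by the authors with Affymetrix Expression Console and RMA, per the submitters' processing notes, in 6 samples. RMA corrects background, normalises across arrays and summarises probe sets, so a shift shared by most genes is removed and changes of dim genes are compressed. No software version or scan date was at hand, and batches were not tested. Values lay between -0.17 and 12.7, with sample medians of 2.30 to 2.34 on fibronectin and 2.35 to 2.39 on collagen, and correlations across all probe sets of 0.997 to 0.998 within and 0.994 to 0.995 across coatings. The number of samples limits the precision.

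Groups came from the sample titles. Of 45101 probe sets 34958 had 1 gene in the platform annotation, with symbols updated through RefSeq (18033 of 18195 gene identifiers found), 932 had several and 9211 had no entry. Genes and, separately, probe sets with 1 gene were fitted with limma 3.58.1 in R 4.3.3 (lmFit and eBayes, two-sided, fibronectin minus collagen), with Benjamini-Hochberg adjustment over all features tested. Residual and prior degrees of freedom were 4 and 3.80. The SE, interval and adjusted p of a gene's brightest probe set are from the gene fit, those of other probe sets from the fit over probe sets. Exact permutation tests and figures used Python 3.11.15, SciPy 1.17.1 and matplotlib 3.10.9. The procedure was tested on simulated data, with 200 of 10942 genes changed. Recovery was 58% at 1.25-fold, 84% at 1.5-fold, 92% at 2-fold and 100% at 3-fold, and 13 of 180 calls were false. Changes below 1.25-fold were not simulated. The simulated share of changed genes was far smaller than the 40.1% of genes that passed in the data, so these rates may not hold for the data.

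The members and lists were chosen with earlier results of these data known. Named were all members, up to 6 genes past the threshold of each of 4 other lists by smallest p, the cell type markers, 4 context genes and the 5 genes most like the member of smallest p. Members of these lists without a gene entry in the annotation used were not analysed here. Alternatives were other brightness filters, scalings, variance models, summaries of probe sets, a stricter threshold, a replicate block and leaving out each sample.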

Additional observations from a re-analysis of the deposited data

How the results depend on the processing

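The 4 falls and 1 rise among members were found again with no brightness filter, with quantile normalisation repeated, with samples centred, with an intensity trend, with array weights, at a threshold of 0.01 and without any single sample (5 called each time). With a filter at the 75th percentile 3 members were called, since Dmd and Dtna were then not tested, and 4 probe sets in place of 11. With all probe sets of a gene averaged 4 were called: Utrn was gained, Sgce was lost and Dmd was not tested. Leaving out 1 sample gave 10 or 11 probe sets called. At a threshold of 0.01, 8 probe sets were called. The brightest Dtna probe set was not among them, at an adjusted p of 0.0131 in the limma fit over probe sets, against 0.00908 in the gene fit. The log2 change lay between -0.83 and -0.72 for Dmd, -0.48 and -0.38 for Sgca, and -0.36 and -0.20 for Dag1. Directions turned only for values without a call: Sgcb was 0.012 with samples centred and its probe set 1436678_at ranged between -0.10 and 0.018 when 1 sample was left out (0.018 without collagen replicate 2), Sspn probe set 1417645_at was 0.00012 with samples centred and ranged between -0.16 and 0.067 when 1 sample was left out (0.067 without fibronectin replicate 1), and Myod1 was 0.039 with probe sets averaged. Deviations of same-numbered samples correlated at 0.10, -0.01 and 0.08, and those of differently numbered samples between -0.14 and 0.10. Whether same-numbered samples share an origin cannot be told from these values. The replicate block gave 5 members and 11 probe sets called. Dim probe sets, among them those of Sgcd and 3 of Dmd, limit what the signal can show. The called Dmd probe set was itself near the filter of 2.33, with 2.57 to 2.74 on fibronectin.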
